A study of Mus musculus with 10 samples.

Results

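Immature LysoDCs of mouse Peyer's patches were described from 655 single cells of 1 library. They were the cells that carried hashtag B0302 and no other hashtag, a hashtag being an antibody with a DNA barcode that marks the sorted population a cell came from. The library held 11878 cell barcodes, of which 8343 had exactly 1 hashtag, 2422 had several and 1113 had none. Among the 836 barcodes with B0302 alone, 655 also had at least 1000 unique molecular identifiers (UMIs, each standing for 1 captured mRNA molecule), at least 500 detected genes and at most 10% mitochondrial UMIs. They made up 655 of 7217 used cells and 17.2% of the 3800 immature LysoDCs that had been sorted. The mitochondrial limit removed most of the others: 160 cells were over it, 85 of them for that reason alone, while 70 had too few UMIs and 93 too few genes. At the limits, the shallowest cell kept had 1012 UMIs and the deepest cell dropped for depth had 995, and the mitochondrial share was 9.86% in the highest cell kept and 10.7% in the lowest one dropped.

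The Peyer's patches came from 30 untreated female C57BL/6Rj mice, pooled, and were digested for 40 min with collagenase II and DNase I before CD11c bead enrichment. A panel of antibodies to CD101, XCR1, CD11b, CD11c, CD24, CD4, MHCII, JAM-A, MerTK, SIRPa and embigin sorted follicular LysoDCs (621 used cells), immature, intermediate (983) and mature LysoDCs (455), immature cDC2s (970) and maturing cDC2s (261). Blood cells with high CD115 came from 20 other female C57BL/6Rj mice given clodronate-loaded liposomes 9 days earlier, and gave Ly6C+ monocytes (931 used cells), CD43+ monocytes (663) and cells negative for both (1678, DN blood cells). All 9 populations were tagged after the sort and run in 1 library, and the design text states that cell mortality was seen in this dataset. Each population is therefore 1 sum of cells from pooled animals, with no replicate, no test and no p-value. Levels are given as CPM, a gene's UMIs scaled to a population sum of 1000000, and 95% intervals are exact and cover counting error only. A gene was counted as higher or lower when its ratio was at least 2 and its level was at least 20 CPM in the higher population. In such sums, fewer cells that express a gene and less mRNA per cell cannot be told apart.

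LysoDCs are lysozyme-rich phagocytes that derive from monocytes and sit beneath the epithelium that covers Peyer's patches, where they take up particles and microbes passing through M cells. They combine macrophage features, such as complement and lysosomal genes, with presentation on MHC class II. The sort told their stages apart by surface proteins, among them the adhesion molecules JAM-A and embigin.

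The labelled identity held for the 4 LysoDC markers. Lyz1, a lysozyme that cleaves bacterial cell walls, reached 13884 CPM in immature LysoDCs, against 14594 in the follicular, 11915 in the intermediate and 10669 in the mature gate. C1qa, a chain of the complement starter C1q, read 10297, 9078, 8389 and 7366 CPM from follicular through immature and intermediate to mature. Adamdec1, a secreted metalloprotease-like protein of gut phagocytes, was level across the gates, at 1037, 1034, 1024 and 996 CPM. Cp encodes ceruloplasmin, a copper-bearing enzyme that oxidizes iron, and ran 237, 129, 72.2 and 31.9 CPM. Immature LysoDCs thus stood second of the 4 gates for each marker, although for Adamdec1 the 95% interval (1013 to 1056 CPM) took in the levels of the neighbouring gates. After thinning every cell to 3000 UMIs, which left out 18 immature LysoDCs, C1qa was seen in all 637 cells, Lyz1 in 99.4%, Adamdec1 in 89.8% and Cp in 32.2% (95% interval 28.6 to 36.0). Unthinned, the shares were 99.8% for C1qa and Lyz1, 96.5% for Adamdec1 and 70.4% for Cp. Thinned Cp shares were 48.3% in follicular, 17.6% in intermediate and 7.45% in mature LysoDCs and 0.855% in immature cDC2s, in the order of the CPM.

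**Figure D1:**
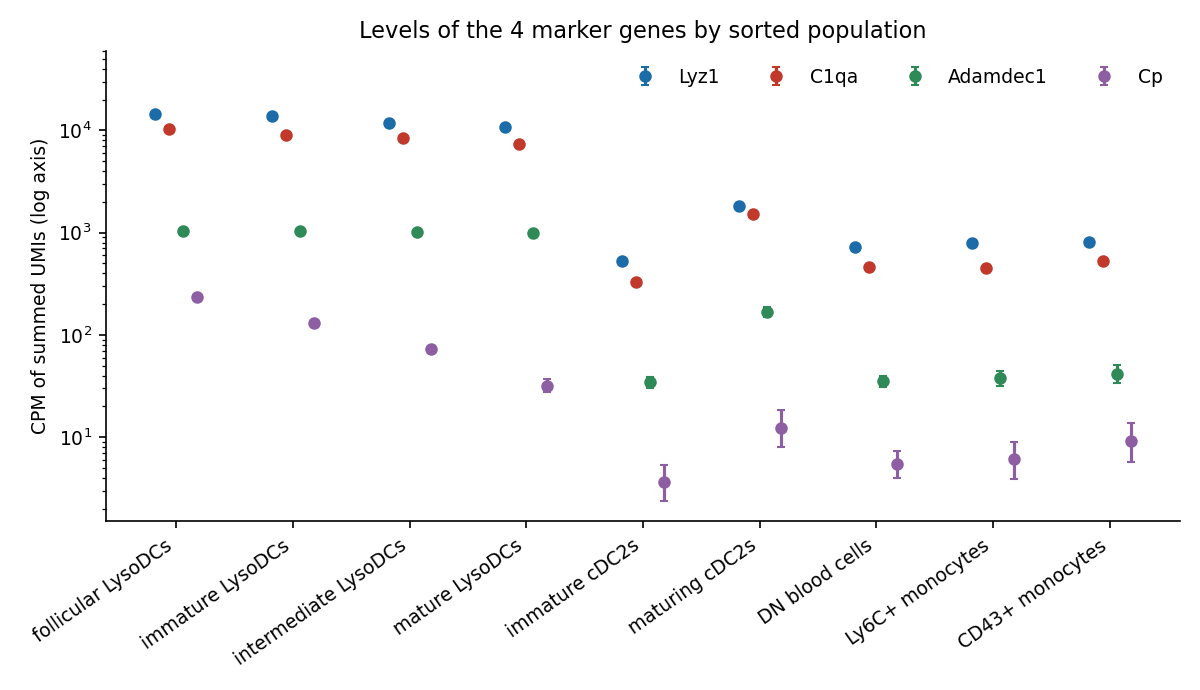
Level of Lyz1, C1qa, Adamdec1 and Cp (CPM of summed UMIs, log axis) in each of the 9 sorted populations, with 95% counting intervals as bars. The 4 LysoDC gates lie together, Cp steps down from 237 CPM in follicular to 31.9 CPM in mature LysoDCs, and all 4 genes are present at a lower level in every other population, highest in maturing cDC2s.

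The same genes were found at a lower level in the populations sorted as other cells. Summed over the 4 markers, immature cDC2s held 893 CPM and maturing cDC2s 3520, against 24125 in immature LysoDCs. Immature cDC2s read 326 CPM of C1qa, the 3 blood populations 454 to 526 CPM and maturing cDC2s 1514 CPM, and 59.7% of thinned immature cDC2s and 71.7% to 75.8% of thinned blood cells held a C1qa UMI (87.9% and 83.1% to 85.7% unthinned), at median depths of 7387.5 and 2963 to 4484 UMIs against 13652 in immature LysoDCs. In the clustering given below, 56 of 970 immature cDC2s and 57 of 261 maturing cDC2s fell in clusters made up mostly of LysoDCs. The part of those cells in the cDC2 levels was not tested. Ratios against cDC2s and monocytes are printed beside these levels, whose part in them was not tested. Gate genes followed the sort. Embigin (Emb) read 19.5, 89.7, 118 and 130 CPM from follicular to mature LysoDCs, JAM-A (F11r) 2.20, 9.56, 56.1 and 80.1, and Mertk 85.5, 47.3, 32.9 and 30.9. Cd24a was low in immature LysoDCs at 3.99 CPM and at 52.1 CPM in mature ones. These genes served to check the gate and are no findings.

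Marker lists of other cells differed in level in immature LysoDCs. The summed markers of T cells came to 11.3 CPM, of NK cells to 8.8, of epithelium to 2.8, of red cells to 2.0, of platelets to 12.1, of stroma to 5.4, of mast cells to 7.7 and of cDC2s to 16.3, and no gene of these 8 lists reached 20 CPM. The B cell list came to 211 CPM, of which Cd79b made up 208, while Cd79a was at 2.28. Other lists were carried by a few genes that LysoDC gates shared: the plasmacytoid list (1244 CPM) by Bst2 (1065) and Ccr9 (124), with Siglech at 1.59, and the cDC1 list (304.9 CPM) by Irf8 (247) and Batf3 (53.6), with Clec9a at 0.342. The mature dendritic cell list (98.1 CPM) was mostly Fscn1 (92.2), with Ccr7 at 1.02, the plasma cell list (80.0 CPM) mostly Xbp1 (70.7), and the neutrophil list (43.6 CPM) nearly all Csf3r. The macrophage list came to 55.3 CPM, with 1 of its 7 genes, the sort-gate gene Mertk, at 20 CPM or more. Its genes Timd4 and Vsig4 were at 0 UMIs. The part of such cells in the results was not tested. Cd79b was at a like level in the other gates, at 233 CPM in follicular and 186 in intermediate LysoDCs. Hashtag counts were far apart in their medians, at 924 UMIs of the cells' own tag and 48 of the next tag. The used cells of other tags had a median of 28 immature-tag UMIs. At the edges the counts met, with 68 immature-tag UMIs in the lowest member and 69 in the highest used cell of another tag. The cutoff was 64 UMIs, and 1 used cell of another tag was over it. Among barcodes with several tags, which were removed, 518 passed the cell filters and had at least as many immature-tag UMIs as the lowest member. Of 37 barcodes that recurred in the second dataset of the series, 1 belonged to an immature LysoDC. Median depth was 13652 UMIs in immature LysoDCs, close to that of the intermediate (14279) and mature gates (13588) and above that of follicular LysoDCs (10551), and the 4 sums held between 6119565 and 14231863 UMIs (8782758 in immature LysoDCs).

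The 3 chains of C1q together made 18480 CPM of the immature sum and the chains kept their order of C1qa, C1qb and C1qc in every gate. C1qb read 6600, 6016, 5398 and 4651 CPM and C1qc 3778, 3386, 2998 and 2612 CPM from follicular to mature LysoDCs, so that each chain was lower at each step. The genes lie side by side on chromosome 4. The 250 bases before the start of C1qb and C1qc are shown because both genes step down together across the gates (RefSeq, GRCm38.p6, minus strand, 5′ to 3′, ending at the base before the start). The capitals in C1qc mark the only match to the PU.1 core GAGGAAG, here on the other strand as CTTCCTC, 194 to 188 bases before the start. That core was searched on both strands and occurs in 10.6% of 32851 promoters of the same length, so the match is a description of the letters only.
C1qb, chr4:136886201-136886450: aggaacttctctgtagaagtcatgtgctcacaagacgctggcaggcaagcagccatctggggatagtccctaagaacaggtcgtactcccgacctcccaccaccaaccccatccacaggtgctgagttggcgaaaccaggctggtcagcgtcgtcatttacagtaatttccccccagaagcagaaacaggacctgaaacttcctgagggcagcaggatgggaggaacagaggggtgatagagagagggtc
C1qc, chr4:136892915-136893164: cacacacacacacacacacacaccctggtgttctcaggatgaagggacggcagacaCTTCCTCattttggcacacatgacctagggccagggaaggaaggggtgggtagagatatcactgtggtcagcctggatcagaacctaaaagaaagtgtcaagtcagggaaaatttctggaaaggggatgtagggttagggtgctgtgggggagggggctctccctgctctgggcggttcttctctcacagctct
Spi1, which encodes PU.1, a factor required for myeloid cells, was at 594.5, 630, 652 and 648 CPM from follicular to mature LysoDCs.

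Immature LysoDCs had no gene of their own among the 4 gates. Of 2504 genes with at least 50 CPM in immature LysoDCs, 0 stood 2-fold above each of the other 3 LysoDC gates, 551 stood above each by any amount and 257 below each. Pclaf, which clamps the replication factor PCNA, was the highest relative to the next gate, at 40.7, 54.9, 37.2 and 28.3 CPM from follicular to mature (1.35-fold over follicular). The methionine salvage enzyme gene Apip followed at 58.2, 73.9, 60.1 and 53.6 CPM (1.23-fold over intermediate). Stmn1, whose protein destabilizes microtubules, read 112, 129, 110 and 70.1 CPM (1.15-fold over follicular). On the low side, Ypel3 was at 89.3, 68.5, 86.0 and 95.8 CPM, 1.25-fold below the next gate. Ltc4s, the enzyme that makes leukotriene C4, was 1.23-fold below, at 339, 249, 307.8 and 363 CPM, and the prostaglandin D synthase gene Hpgds 1.19-fold below, at 113, 95.3, 115 and 119 CPM. Over 6975 genes, the Spearman correlation of levels was 0.99 with intermediate, 0.984 with follicular and 0.972 with mature LysoDCs, 0.774 with immature cDC2s and 0.676 with Ly6C+ monocytes. These correlations are a description over genes that share 1 library and are not independent.

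Against follicular LysoDCs, immature LysoDCs had higher levels of Il1r2, Il1b, Clec4n and nearly all glycolysis genes, and lower levels of Tlr12, Tspan10, Apoc4 and Apoe. Of 5222 genes measured, 16 were higher (0.306%) and 14 lower (0.268%) by at least 2-fold. With each cell called by its dominant hashtag 8 were higher, and with the mean of per-cell CPM 26 were lower. Il1r2, the decoy receptor of interleukin 1, read 28.4 CPM in follicular LysoDCs and 102.4 CPM in immature ones, with 156 and 160 CPM in the intermediate and mature gates. Its ratio was 3.60 (95% counting interval 3.07 to 4.25), and 22.3% of thinned immature LysoDCs held a UMI of it against 6.61% of follicular ones (51.0% and 16.1% unthinned). Il1b, which encodes the cytokine itself, was at 165, 379, 622 and 773 CPM in the same order (2.30-fold over follicular, 2.14 to 2.47). Receptor and ligand were therefore both low in follicular LysoDCs and higher in the other 3 gates.

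Surface receptors came next. The immunoreceptor gene Trem3 was at 63.4 CPM against 21.0 (3.02-fold) and the inhibitory sialic acid receptor gene Siglece at 61.4 against 27.3 (2.25-fold). Clec4a2 and Clec4n, C-type lectins of which the latter (Dectin-2) binds fungal mannans, were 2.12-fold and 2.07-fold higher, and the formyl peptide receptor gene Fpr2 2.03-fold. Clec4n read 39.7, 82.1, 160 and 188 CPM from follicular to mature, whereas Clec4a2 was highest in immature LysoDCs at 101 CPM, against 47.4, 89.7 and 70.4 in the others. The lactate exporter gene Slc16a3 was at 91.2 CPM against 45.1 (2.02-fold), the urea cycle enzyme gene Ass1 at 176 against 86.5 (2.03-fold), and Mif, which encodes a macrophage-retaining cytokine, at 589 against 294 (2.0-fold). Tnnt1, a muscle troponin gene, was 2.32-fold higher and the ubiquitin ligase gene Nedd4 1.98-fold.

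Against follicular LysoDCs, glycolysis was the list with the largest median of those plotted. Of 14 genes measured, 13 were higher in immature than in follicular LysoDCs, 1 of them by 2-fold, with a median log2 ratio of 0.65, beside 50.9% of all genes above a ratio of 1 and a median of 0.00. From follicular to mature LysoDCs, Gapdh read 970, 1592, 1795 and 1694 CPM, the pyruvate kinase gene Pkm 440, 713, 866 and 925, and the lactate dehydrogenase gene Ldha 274, 451, 481 and 499. Pfkfb3, which makes an activator of glycolysis, was the exception, at 122 CPM in immature and 129 in follicular cells. Against intermediate LysoDCs the list leaned the other way by less, with 2 of 14 genes above 1 (54.8% of all genes) and a median of -0.15. Oxidative phosphorylation genes were shifted less than glycolysis, with 26 of 31 above 1 and a median log2 ratio of 0.14 over follicular LysoDCs. The S100 list had 5 of 5 above 1 (median 0.54), with S100a11 at 164 against 86.8 CPM and S100a6 at 2914 against 2002.

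Genes lower in immature than in follicular LysoDCs included receptors and lipid carriers. Tlr12, which senses a parasite profilin, read 62.5, 20.2, 11.4 and 9.15 CPM from follicular to mature (3.10-fold lower in immature, 2.59 to 3.72), and the tetraspanin gene Tspan10 205, 83.5, 46.5 and 37.6 CPM (2.46-fold lower). The apolipoprotein gene Apoc4 was 2.25-fold lower, at 55.0 against 124 CPM. Apoe, the main lipid carrier of macrophages, stayed under 2-fold and read 25415, 15315, 12722 and 12379 CPM. Axl, a receptor that binds apoptotic cells through a bridging ligand, was at 61.6 against 119 CPM (1.93-fold lower). The selenium carrier gene Selenop, Ms4a7, the lysosomal transporter gene Atp13a2 and the integrin gene Itga9 were 2.0-fold, 2.21-fold, 2.14-fold and 2.0-fold lower. These genes were lower again in intermediate LysoDCs, by little for Axl (57.1 CPM) and Ms4a7 (150 CPM) and by more for Atp13a2 (17.8 CPM) and Itga9 (23.2 CPM).

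The lists moved with these genes by small amounts. Macrophage core genes, the sort-gate gene Mertk included, were above 1 in 0 of 9 cases (median log2 ratio -0.29). Cathepsins and lysosomal hydrolases were above 1 in 1 of 21 (-0.18), MHC class I and peptide transport in 1 of 14 (-0.19) and interferon-stimulated genes in 2 of 18 (-0.17). No member of these 4 lists was past 2-fold. The cathepsin D gene Ctsd, for example, was at 1004 CPM against 1335, and Ctsb at 854 against 1140. Immediate early and dissociation stress genes, which mark handling of tissue, lay on both sides, with 12 of 21 above 1 and a median of 0.03. The B cell list came to 274 CPM in follicular LysoDCs against 211, and follicular LysoDCs had a lower median depth and 204 UMIs of the B cell gene Cd79a, 182 of them in 5 cells, and the part of either in these differences was not tested. Without the 16 follicular and 3 immature cells that clustered with cDC2s or blood cells, 16 genes were higher and 11 lower.

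**Figure D2:**
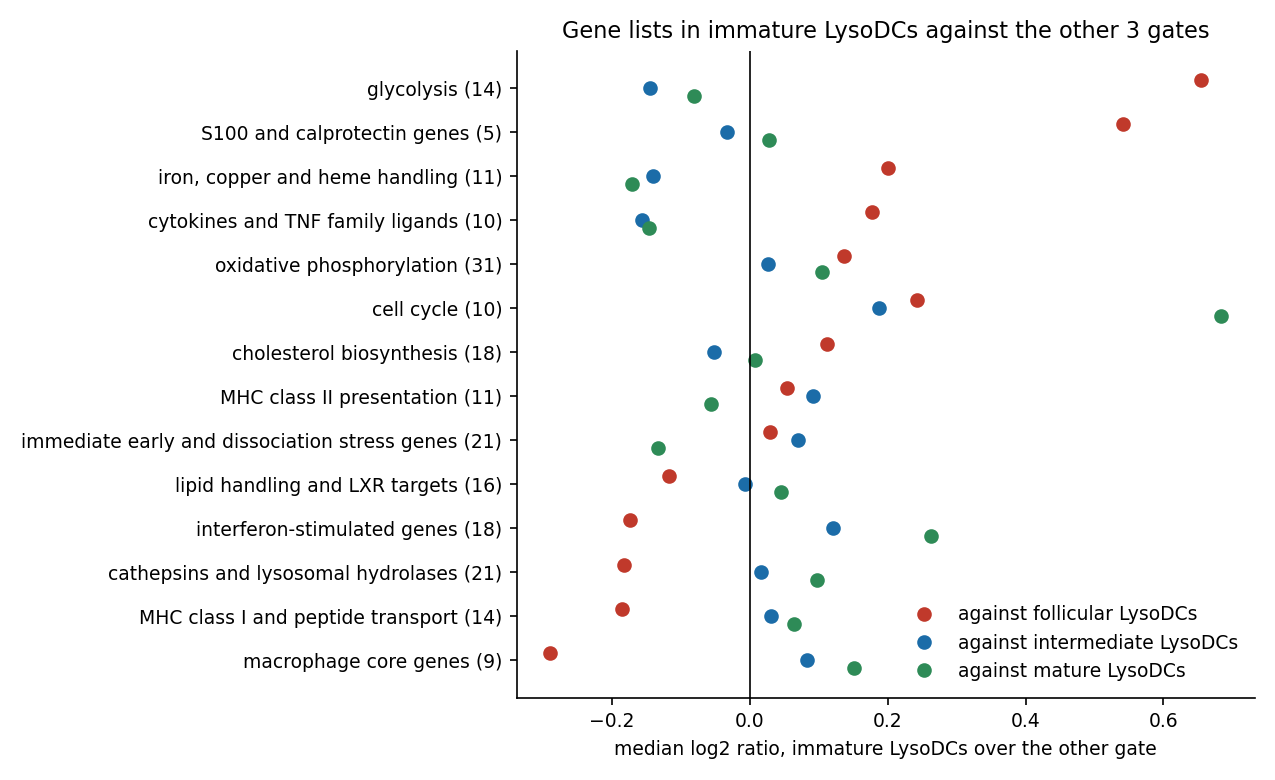
Median log2 ratio of immature LysoDCs over follicular, intermediate and mature LysoDCs for 14 gene lists, with the number of genes measured against follicular LysoDCs in parentheses. Glycolysis lies at 0.65 against follicular LysoDCs and near 0 against the other gates, and macrophage core genes at -0.29 against follicular and above 0 against the others; the S100 median against mature LysoDCs is -0.51 with TMM scaling, under which S100a10 (19.1 CPM in mature cells as reported) also passes the 20 CPM minimum.

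Ferritin genes were higher in immature than in follicular LysoDCs and lower than in the later gates. The ferritin heavy chain gene Fth1, the iron store's catalytic subunit, was at 29667, 34073, 40508 and 38371 CPM from follicular to mature LysoDCs and the light chain gene Ftl1 at 7077, 8452, 9319 and 9163 CPM. The heme-degrading enzyme gene Hmox1 read 35.8, 46.3, 66.9 and 55.6 CPM. Over the list, 8 of 11 genes were above 1 against follicular LysoDCs, beside 50.9% of all genes, and 3 of 11 against intermediate LysoDCs, beside 54.8%. Cp ran against this order, as given above.

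From immature through intermediate to mature LysoDCs, 46 of 2687 genes with at least 50 CPM in 1 of the 3 gates were in order at both steps and changed at least 2-fold between the ends, 11 downward and 35 upward. A further 4 of the 50 genes past 2-fold between immature and mature were not in order. The order of the gates was taken from their names. The plot of ordered genes also places follicular LysoDCs before the immature gate, a reading chosen after the values were seen. All 11 downward genes were higher still in follicular LysoDCs, and 24 of the 35 upward genes lower still. Of all genes measured between these 2 gates, 50.9% were lower in follicular than in immature LysoDCs.

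Against mature LysoDCs, 21 of 5230 genes were higher (0.402%) and 73 lower (1.4%). The largest ratio among the former was that of Cp, 4.06-fold (3.48 to 4.75). Art2b, an ADP-ribosyltransferase of the cell surface, read 111, 73.6, 43.5 and 29.7 CPM from follicular to mature (2.47-fold), Dkk3, a secreted protein of the Dickkopf family, 106, 86.0, 55.9 and 37.7 (2.28-fold), and the carboxypeptidase-like gene Cpxm1 170, 116, 69.8 and 56.5 (2.05-fold). The scavenger-type receptor gene Cd6, the semaphorin receptor gene Nrp2, the mitochondrial chaperone gene Clpb and Snrnp25, a gene of the minor spliceosome, were between 2.04-fold and 2.08-fold higher. Ifi27l2a, an interferon-induced gene, read 430, 411, 317 and 184 CPM (2.23-fold). Ifi27l2a was thus lower at each step, with its largest step between intermediate and mature cells.

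Most interferon-stimulated genes had ratios above 1 over the later gates, few of them past 2-fold. They were above 1 in 17 of 19 cases against intermediate LysoDCs (median log2 ratio 0.12, 1 of 19 past 2-fold), where 54.8% of all genes were above 1. Against mature LysoDCs they were above 1 in 15 of 19 cases (0.26, 3 of 19 past 2-fold), beside 50.4% of all genes. Irf7, the factor that amplifies interferon production, read 79.4, 59.4, 40.7 and 32.2 CPM from follicular to mature, the antiviral genes Rsad2 36.4, 36.5, 17.1 and 14.2 and Bst2 1370, 1065, 938 and 888. Cxcl10, an interferon-induced chemokine, read 57.3, 50.6, 26.3 and 23.04 CPM and had the largest ratio over intermediate LysoDCs among nameable genes of at least 50 CPM, 1.92 (1.67 to 2.21). That ratio rested on few cells. Of 444 Cxcl10 UMIs in immature LysoDCs, 187 came from 1 cell and 289 from 5 cells of 71 with any, and without the top cell of each gate the levels were 42.01, 29.3, 22.8 and 15.25 CPM. The order was the same, but immature LysoDCs were then less than 2-fold above mature ones.

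The promoter of Cxcl10 is shown as the only one of the 11 downward genes, 8 of which matched a RefSeq promoter, with an interferon-stimulated response element (RefSeq, GRCm38.p6, minus strand, 5′ to 3′). The first capitals mark the match to that element (GAAA, any 2 bases, GAAA), 213 to 204 bases before the start, and the second the match to the AP-1 core TGANTCA, 74 to 68 bases before it. Searched on both strands, the element occurs in 2.98% and TGANTCA in 6.75% of 32851 promoters, and the former in 13 genes of the interferon-stimulated list (48.1% of its 27 matched promoters). No 2 matches overlap.
Cxcl10, chr5:92348890-92349139: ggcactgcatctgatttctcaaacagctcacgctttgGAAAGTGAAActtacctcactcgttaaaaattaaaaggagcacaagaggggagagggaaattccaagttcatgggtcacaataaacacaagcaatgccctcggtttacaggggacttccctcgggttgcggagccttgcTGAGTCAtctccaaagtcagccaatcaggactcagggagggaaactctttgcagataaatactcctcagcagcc
A match is a run of letters and shows no binding.

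Genes lower in immature than in mature LysoDCs included surface, cytokine and transcription factor genes. Epcam, an adhesion gene of epithelia and of some dendritic cells, read 1.41, 1.71, 6.46 and 53.4 CPM from follicular to mature, 31.3-fold lower in immature than in mature cells (18.7 to 56.5). Plet1, which encodes a surface protein of epithelia and mucosal dendritic cells, was 20.1-fold lower, at 3.77, 7.51, 39.6 and 151 CPM. The tetraspanin gene Cd9 was at 16.8, 24.8, 65.0 and 109 CPM, the lymphotoxin gene Ltb at 18.4, 16.1, 31.6 and 122, and Id2, an inhibitor of helix-loop-helix factors needed by dendritic cells, at 4.55, 6.15, 10.7 and 58.2. These 5 genes were low in immature LysoDCs and high in immature cDC2s, at 386, 251, 149, 764 and 602 CPM.

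Several of these mature levels were lower without cells that clustered away from LysoDCs. In the mature gate 50 of 455 cells clustered with cDC2s or blood cells, against 3 of 655 in the immature gate. Without such cells the mature level was 13.6 in place of 80.1 CPM for Plac8, 18.2 in place of 58.2 for Id2, 66.8 in place of 122 for Ltb and 33.1 in place of 53.4 for Epcam. It was 144 in place of 151 CPM for Plet1 and 106 in place of 109 for Cd9. Cd79a, at 2.28 CPM in immature and 63.4 in mature cells, was then higher in immature cells (log2 ratio 1.10). Its immature level was far under 20 CPM. Over all 655 immature cells it had 20 UMIs in 8 cells, 12 of them in 1 cell. Summed epithelial markers were at 2.85 CPM in immature and 56.1 in mature LysoDCs, plasma cell markers at 80.0 and 194, and genes lower in immature LysoDCs numbered 48 in place of 73. In all, 8 genes were then in downward order (7 of them among the 11) and 27 in upward order (25 among the 35).

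**Figure D3:**
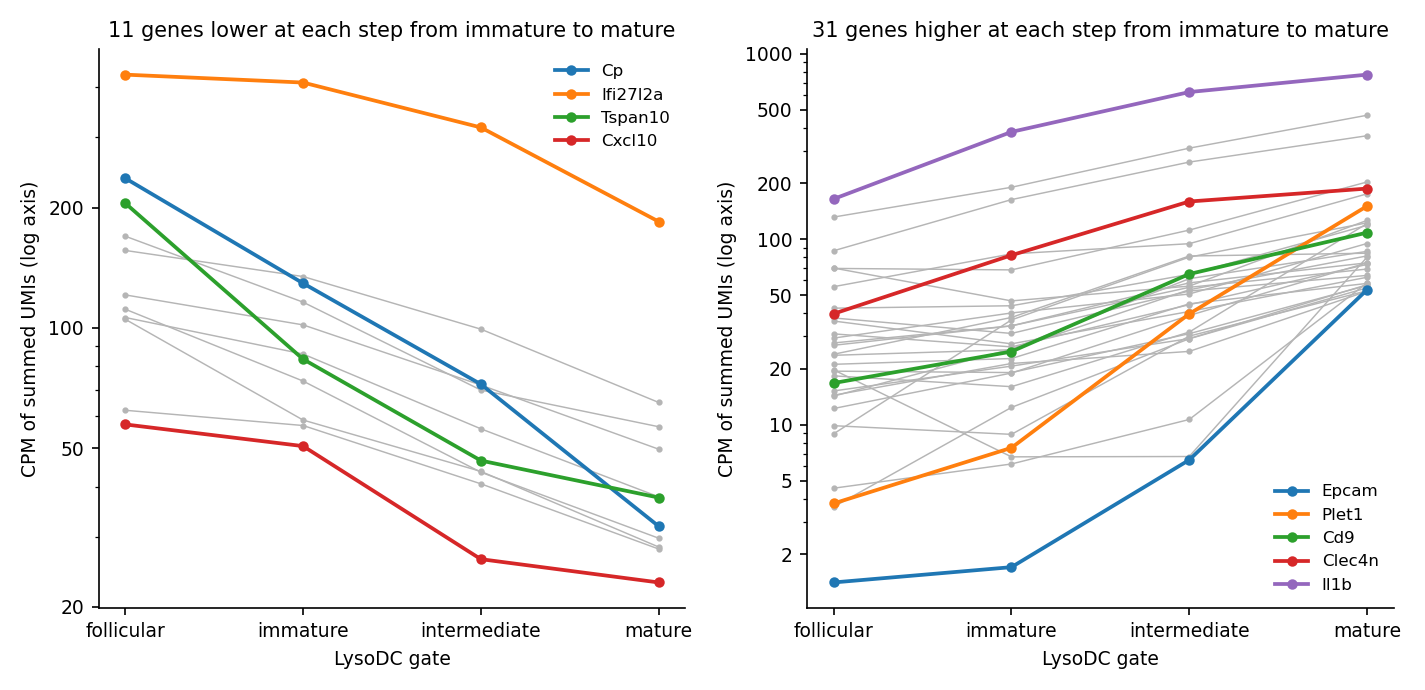
CPM of summed UMIs (log axis) in the 4 LysoDC gates for the genes in order from immature to mature, 11 lower at each step (left) and 31 of the 35 higher at each step (right); each line is 1 gene, and the other 4 were immunoglobulin or gate genes. Coloured lines name examples, such as Cp from 237 to 31.9 CPM and Il1b from 165 to 773 CPM, and all 11 downward lines start highest in the follicular gate.

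Intermediate LysoDCs were the nearest neighbours. Of 5136 genes, 2 were higher (0.0389%) and 17 lower (0.331%) in immature LysoDCs. The 2 were Igkc, an immunoglobulin gene (27.9 against 8.99 CPM), and Rsad2 (2.13-fold). Among genes of at least 50 CPM no gene reached 2-fold upward, and the largest ratios after Cxcl10 belonged to Tspan10 (1.79), Cp (1.79, 1.64 to 1.95), Art2b (1.69), Cpxm1 (1.66) and the dendritic cell factor gene Batf3 (1.60, at 53.6 against 33.5 CPM). Lower genes were Cd9 (2.62-fold, 2.26 to 3.05), the membrane-binding annexin gene Anxa2 (2.39-fold, 25.6 against 61.3 CPM), the antiviral Ifitm1 (2.18-fold, 36.8 against 80.2), the C-type lectin gene Clec4d (2.14-fold, 37.9 against 81.3), the nonclassical class I gene H2-M2 (2.11-fold, 25.4 against 53.5) and Clec4n (1.95-fold). In immature LysoDCs, 5 cells held 41.2% of the Ifitm1 UMIs and 34.5% of those of H2-M2. Clec4d and Clec4n encode partner lectins for fungal cell walls, and in mature LysoDCs they were at 84.2 and 188 CPM, against 81.3 and 160 in intermediate ones. With hashtags called on counts normalized within each cell, 48 genes in place of 19 were past 2-fold against intermediate LysoDCs.

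Against immature cDC2s, the conventional dendritic cells of the same tissue and sort, immature LysoDCs differed in 625 genes that were higher (10.6% of 5874) and 744 lower (12.7%). Over all genes the median log2 ratio was -0.25, and scaling by the trimmed mean of M values (TMM) moved ratios by 0.22 and turned the split to 799 higher and 515 lower. The largest ratios on the higher side belonged to genes of varied roles. The collagen-cleaving protease gene Mmp2 was at 217 against 4.98 CPM (43.7-fold, 31.6 to 62.2), C1qc at 3386 against 86.5 (39.1-fold), the glutamate transporter gene Slc1a2 at 137 against 3.50 (39.0-fold), Cpxm1 at 116 against 3.23 (35.9-fold), Cp at 129 against 3.63 (35.6-fold) and Acod1, which makes the antimicrobial metabolite itaconate, at 520 against 15.2 (34.2-fold). LysoDC genes read at a like low level in other populations of the library, Acod1 at 15.2 to 28.2 CPM outside LysoDCs and maturing cDC2s. The part of that level in the ratios was not tested, nor that of the 56 of 970 immature cDC2s that clustered with LysoDCs.

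Lists gave the same split by function. Of macrophage core genes, 8 of 21 were measured, with 7 higher by 2-fold and 0 lower (median log2 ratio 3.48). The sort-gate gene Mertk is counted here, with the largest ratio of the list (log2 5.29), and is no finding. Vsig4, Timd4, Cd5l and Lyve1 of that list had 0 UMIs in immature LysoDCs. Of cathepsins and hydrolases 15 of 22 were higher and 1 lower (1.13), and of iron, copper and heme genes 9 of 11 higher and 1 lower (2.0). Of lipid genes 11 of 15 were higher and 1 lower (2.24), and of interferon-stimulated genes 13 of 18 higher and 0 lower (2.26). Nr1h3, which encodes the oxysterol receptor LXR alpha, was at 412 CPM against 31.8. Conventional dendritic cell core genes were the reverse, with 15 of 19 lower by 2-fold and 1 higher (median -2.31). Zbtb46, the factor that marks conventional dendritic cells, was at 1.94 against 63.3 CPM, and Epcam 226-fold lower (137 to 405). Btla, an inhibitory receptor, had 1 UMI in immature LysoDCs and 565 in immature cDC2s (668-fold lower, 119 to 26425), Itgae, the integrin that binds epithelial cadherin, 5 and 1226 UMIs (290-fold), and the sialic acid receptor gene Siglecg 7 and 1580 (267-fold).

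The MHC class II presentation list, which holds genes of the sort gate, came to 47255 CPM in immature LysoDCs and 53157 in immature cDC2s. Of its 13 genes, 2 were higher and 3 lower by 2-fold. The list also holds the nonclassical class I gene H2-M2, which was among the higher genes (25.4 against 10.5 CPM). Il1b was lower in immature LysoDCs, at 379 against 806 CPM, while Il1r2 was at 102.4 against 146. Il22ra2, which encodes a soluble trap of interleukin 22, was 3468 CPM in immature LysoDCs and 737 in immature cDC2s, with 2821, 3837 and 3782 CPM in the other LysoDC gates and 152 in Ly6C+ monocytes. Immediate early and dissociation stress genes were lower by 2-fold in 17 of 27 cases and higher in 0 (median -1.82): Jun was at 105 against 770 CPM and Fos at 55.7 against 195. Both populations went through the same digestion, and the part of handling in these differences was not tested.

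Ly6C+ monocytes are the blood cells from which some tissue phagocytes are renewed. Against them immature LysoDCs were higher in 781 of 5991 genes (13%) and lower in 1026 (17.1%), or in 976 and 804 with TMM scaling, which moved ratios by 0.19. The populations differed in tissue, digestion, CD11c enrichment and clodronate as well, and these cannot be told apart from the cell type. The kinase gene Dapk2 was at 86.9 against 1.94 CPM (44.7-fold, 22.6 to 104), the costimulatory gene Icos at 112 against 2.91 (38.4-fold), the lipoprotein receptor gene Lrp8 at 279 against 8.25 (33.8-fold), the adhesion gene Vcam1 at 125 against 3.88 (32.3-fold), Fscn1, which bundles actin in dendrites, at 92.2 against 2.91 (31.7-fold) and Adamdec1 27.5-fold higher. Lrp8 and Vcam1 were higher still in follicular LysoDCs, at 343 and 200 CPM, while Dapk2 was lower there, at 63.6.

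Genes typical of monocytes were among the lowest. Chil3, a chitinase-like protein of inflammatory monocytes, was at 1.71 against 1293 CPM (757-fold lower, 459 to 1354), fibronectin (Fn1) at 2.62 against 922 (352-fold) and the clotting factor gene F13a1 at 2.73 against 879 (322-fold). Fcgr1, the high-affinity IgG receptor, had 2 UMIs against 635 (677-fold lower, 187 to 5601), and Cd177, a neutrophil-type surface gene, had 1 against 634 (1352-fold, 242 to 53464). Of the Ly6C-high monocyte list 16 of 19 genes were lower by 2-fold and 0 higher (median log2 ratio -6.15). Lyz2 was not past 2-fold, at 35048 CPM against 43348, and at 42390, 33653 and 31009 in follicular, intermediate and mature LysoDCs. Lyz1 and Lyz2 are close copies, 16.1% of the 50-base windows of the Lyz1 transcript also occurring in Lyz2, so that their separate levels are uncertain. Genes of the class II list, H2-M2 included (25.4 against 2.91 CPM), were higher by 2-fold in 8 of 11 cases and lower in 0 (median 2.83). Cholesterol synthesis genes were higher in 11 of 18 and lower in 0 (1.33), and interferon-stimulated genes lower in 16 of 25 and higher in 1 (-1.98).

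**Figure D4:**
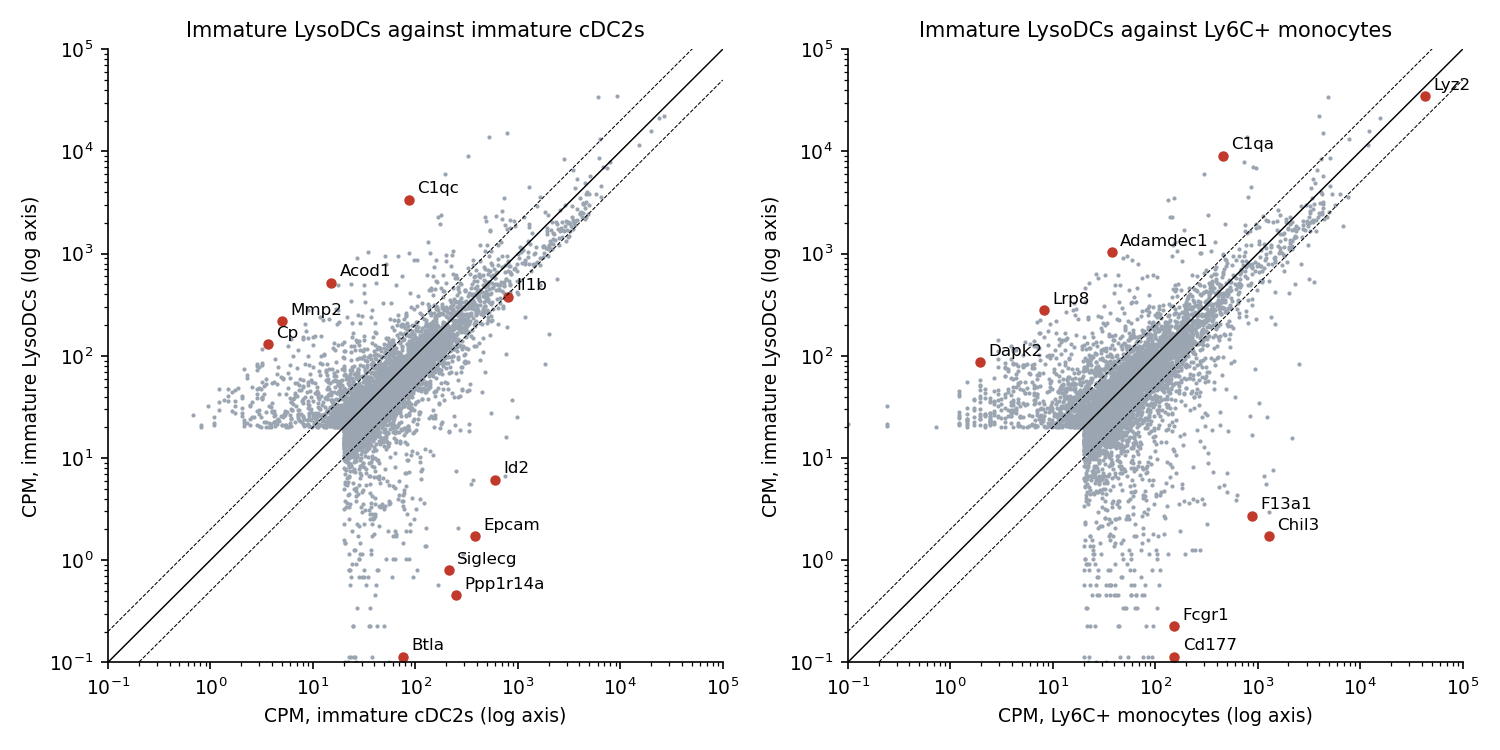
CPM of each gene with at least 20 CPM in 1 of the 2 populations, immature LysoDCs (vertical, log axis) against immature cDC2s (left) and Ly6C+ monocytes (right). The solid line marks equal levels, dashed lines 2-fold, red points the genes named beside them, and values under 0.1 CPM are drawn at 0.1; Lyz2 lies near the line on the right and Btla and Cd177 at the lower edge.

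Cell cycle genes were present in immature LysoDCs and nearly absent from monocytes. As a list they summed to 600 CPM in immature, 496 in follicular, 528 in intermediate and 401 in mature LysoDCs, 620 in immature cDC2s and 92.5 in Ly6C+ monocytes. Of the list's 28 genes, 10 were measured. All 10 were above 1 against each of the other 3 LysoDC gates, with medians of 0.24 (follicular), 0.19 (intermediate) and 0.68 (mature), beside 50.9%, 54.8% and 50.4% of all genes above 1 and all-gene medians of 0.0034, 0.015 and 0.0015. At 3000 UMIs per cell, 131 of 637 immature LysoDCs (20.6%, 17.5 to 23.9) held at least 2 cell cycle UMIs, against 16.9%, 17.2% and 14.4% in follicular, intermediate and mature LysoDCs, 18.9% in immature cDC2s and 3.77% in Ly6C+ monocytes. Unthinned, the share was 69.8% in immature LysoDCs and 7.30% in Ly6C+ monocytes. The interval of immature LysoDCs overlapped those of follicular (14.01 to 20.2) and intermediate LysoDCs (14.8 to 19.7), and barely that of mature ones (11.3 to 18.1). Mki67, a protein of dividing nuclei, was at 103 CPM in immature LysoDCs against 95.6, 98.0 and 85.3 in the other gates. In Ly6C+ monocytes it was at 9.95 CPM. Among cells thinned to 3000 UMIs, Mki67 was seen in 20.1% of immature LysoDCs and 10.8% of immature cDC2s. The cell cycle gene Top2a was seen in 7.22% and 7.37% of these cells. The share with at least 2 cell cycle UMIs need not be the share of dividing cells, which was not tested.

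Clustering of all 7217 cells into 17 clusters, made without regard to hashtags, placed 652 of 655 immature LysoDCs (99.5%, 98.7 to 99.9) in clusters made up mostly of LysoDCs, 0 in cDC2 clusters and 3 in blood clusters. Mature LysoDCs had 10.3% of their cells in cDC2 clusters. Within the LysoDC clusters, 62.0% of immature cells were in cluster 3, which also held 45.8% of intermediate, 26.7% of follicular and 24.8% of mature LysoDCs. Cluster 4 held 12.4% of immature and 58.6% of follicular cells, and cluster 5 held 10.4% of immature, 40.4% of intermediate and 56.0% of mature cells. Immature LysoDCs were thus mostly in 1 cluster shared with the intermediate gate. The share in the largest cluster depended on the clustering, from 31.8% to 80.6% over the alternatives. Cluster 12 held 57 immature LysoDCs (8.7%) with 3984 CPM of the cell cycle list, against 178 to 228 CPM in the other clusters with at least 10 immature cells. In cluster 9, the 24 immature cells had a median of 2098 UMIs.

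Cell-to-cell spread was measured by the Fano factor (variance over mean, which is 1 for random sampling of equal cells) in 621 immature LysoDCs thinned to 5000 UMIs, 34 shallower ones being left out. The median over 3085 genes was 1.06, and 82 genes reached 2. Most of the 12 genes with the largest values were abundant ones: Fth1 (33.1, mean 168 UMIs per thinned cell), Apoe (27.3, mean 81.5), Lyz2 (26.3) and Lyz1 (17.4). For Apoe a cell at the median held 73 UMIs and the top cell 351. C1qa had a factor of 3.17 around a mean of 46.3 UMIs, Adamdec1 of 2.44 around 5.31 and Cp of 1.41 around 0.672. The factor grows with the mean, and by another measure the 62 cells with most of a gene held 41.97% of the Cp UMIs, 22.9% of those of Apoe and 20.1% of those of Fth1. That share is raised by a low mean, such as that of Cp, so it does not rank these genes by unevenness.

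Cxcl10 and Il1b were uneven in another way. Cxcl10 had a factor of 23.7 with UMIs in 5.96% of thinned cells and up to 52 in 1 cell. Il1b had a factor of 8.84 and was seen in 63.4% of cells, with 54.9% of its UMIs in the 62 cells with most. In the follicular, intermediate and mature gates the factor of Il1b was 4.50, 6.60 and 8.54, and that of Cxcl10 13.8, 11.7 and 6.87. The histone gene Hist1h1b, made during DNA replication, had a factor of 11.1 with UMIs in 6.12% of cells.

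Pairs of abundant genes moved together or apart over the 621 immature LysoDCs, which share 1 library and thinned depth. Pearson's r of log-transformed thinned UMIs was 0.49 for C1qa with C1qb, 0.47 for Fth1 with Ftl1 and 0.38 for Lyz2 with C1qa. Apoe was related to Actb and to Gapdh by r = -0.42 each, and to C1qa by 0.32. Each cell's total was fixed by the thinning, and the part of that in these values was not tested. Lyz1 and Lyz2 had r = -0.28. These values are descriptions, with no test.

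**Figure D5:**
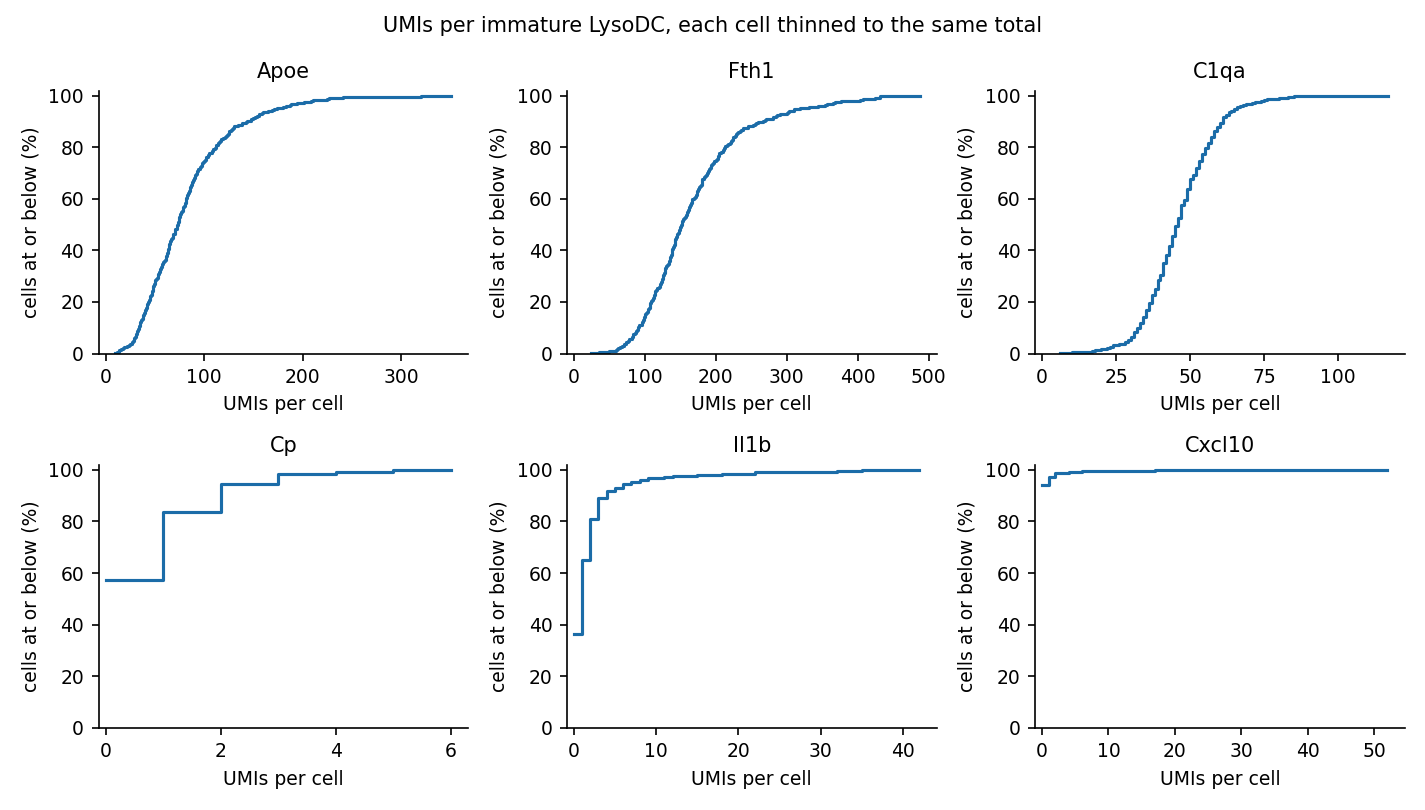
Share of immature LysoDCs (vertical, percent) with at most the given number of UMIs (horizontal) of 6 genes, each of 621 cells thinned to 5000 UMIs. Apoe, Fth1 and C1qa are in every cell, with a long upper tail for Apoe up to 351 UMIs, whereas Cxcl10 is absent from all but 5.96% of cells and reaches 52 UMIs in 1 of them.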

How the data were processed

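Single-cell 3′ mRNA and hashtag libraries (10x Chromium) of dataset 1 were analysed. The deposited values are raw UMI counts per gene and cell barcode, made by the authors with Cell Ranger, version 6.0.1 per the file headers and 2.0.0 with mm10 per the submitters' processing notes; other steps are not given in the sources used here. Dataset 2 was not analysed here, apart from counting shared barcodes.

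Hashtag counts were centred log-ratio transformed across cells and called with HTODemux (Seurat 5.3.0, positive quantile 0.99, otherwise defaults). Barcodes with several tags were removed as doublets between populations and no doublet caller was run, so doublets within a population remain. Cells needed 1000 UMIs, 500 genes and at most 10% mitochondrial UMIs. Raw counts were summed per population and given as CPM over all 32285 genes. Poisson, conditional binomial and Clopper-Pearson intervals at 95% cover counting error only. Shares were taken after thinning cells to 3000 UMIs, and Fano factors at 5000 UMIs over genes with a mean of at least 0.2. Clusters used 2000 variable genes, 30 principal components, 20 neighbours and Leiden resolution 0.8 (scanpy 1.11.5). TMM factors (edgeR 4.0.16) served only as alternative scaling. The scripts were tested on simulated data.

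The members, the 47 lists (668 genes), the comparisons and the alternatives were chosen with earlier results of these data known. Named genes were those with the largest ratios each way among genes of at least 50 CPM (12, or 6 against intermediate LysoDCs and immature cDC2s), the 12 with the largest Fano factors, up to 4 per list and the 4 markers, leaving out mitochondrial, ribosomal, immunoglobulin, unnamed and sort-gate genes. Other genes named (such as Spi1, Ypel3, Apip, Igkc, Cd79a and ordered genes outside those ranks), the reading of follicular LysoDCs within the order, and levels without the top cells were chosen after their values were seen.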

Additional observations from a re-analysis of the deposited data

How the results depend on the processing

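Of the main results under each alternative, 83 values stayed close to the reported one and 21 moved; the cause was not tested. Calling each cell by its dominant hashtag (893 immature LysoDCs, but only 43 Ly6C+ monocytes) gave 12 genes past 2-fold against intermediate LysoDCs in place of 19, 20 in place of 31 medians at least 1 from 0 on the log2 scale, in either direction, among 143 pairs of list and comparison, 31.8% of immature cells in their largest cluster and 98.4% in LysoDC clusters, and it reversed the median of chemokine ligands against Ly6C+ monocytes (-0.68). HTODemux on counts normalized within each cell, an alternative chosen after seeing the data as was leaving out shared barcodes, kept 785 cells and gave 48 genes against intermediate LysoDCs, 40.9% and 97.7%. A minimum of 50 CPM, which tests fewer genes, gave 6 genes past 2-fold against intermediate LysoDCs, 50 against mature LysoDCs, 793 against immature cDC2s and 1063 against Ly6C+ monocytes, and a minimum of 100 CPM left 18 ordered genes. The mean of per-cell CPM gave 46 genes against follicular LysoDCs in place of 30. The share with cell cycle UMIs was 33.7% at 5000 UMIs and 11.3% with at least 3 UMIs. The largest cluster's share was 80.6% and 34.4% at resolutions 0.4 and 1.5, 43.3% with at least 3000 UMIs per cell, 44.3% with at most 5% mitochondrial UMIs and 66.8% without shared barcodes. Thinning to 8000 UMIs gave 132 genes with a Fano factor of at least 2. Without cells in clusters of another tissue group, Cd79a was higher in immature than in mature LysoDCs (1.10). Before that removal it had only 20 UMIs in immature LysoDCs, 12 of them in 1 cell. Of the 11 downward and 35 upward ordered genes, 7 and 28 were shared with the dominant-hashtag calls and 11 and 35 with TMM scaling. Of the other values (single genes, lists and gene counts by direction), 1555 stayed close, 333 moved and 2 reversed. No paired analysis was possible because each population is 1 sum of cells from 1 library, with no replicate. Depth limits genes under about 20 CPM.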
